A study of Mus musculus with 2 samples.

Results

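MicroRNAs (miRNAs) are short RNAs that guide Argonaute proteins to messenger RNAs and repress them, mostly through the seed, which is bases 2 to 8 of the mature strand. Dicer, the RNase III enzyme encoded by DICER1, cuts each hairpin precursor into a strand from its 5′ side (5p) and a strand from its 3′ side (3p). Its RNase IIIb domain makes the cut that frees the 5p strand and its RNase IIIa domain the cut that frees the 3p strand, and usually one of the strands is kept and the other is degraded. The strands described here are mmu-miR-592-5p, mmu-miR-1948-5p and mmu-miR-1948-3p, called miR-592-5p, miR-1948-5p and miR-1948-3p below, which make up 3 of the 281 mature miRNAs in the deposited table. They were chosen from their measured values: among the 206 listed strands with an arm in the name and at least 100 reads over both libraries, they had the lowest ratios of the mutant to the wild-type liver in RPM, the reads of a miRNA scaled by the authors to a common library size. Their ratios are therefore a description and were not tested.

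The mutant group was 1 liver library whose genotype is given as DICER1 mutant, and the other was 1 library from a wild-type liver, both from C57BL/6 mice aged 3 months. By its title the series concerns mice modelling DICER1 syndrome, which predisposes people to tumours. The deposited column names call the mutant hDICER1_Mut. The labels do not give the variant, the promoter or cell type in which it acts, the number of animals, or whether the mutant liver held tumour, although the design text speaks of normal liver and liver cancer. With 1 library a group, an effect of genotype and a difference between animals, tissue pieces or libraries cannot be told apart, and no p-value was computed. All intervals are 95% intervals that cover counting error only, and reads copied by PCR are not independent molecules. The mutant library held 18480608 reads and the wild-type library 11432192, so that 3 reads, the floor set by a count of 0, correspond to 0.162 RPM in the mutant and 0.262 RPM in the wild type. The table held only rows that differed at least 2-fold on the authors' scale.

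The sequence of miR-592-5p is shown first because it is the strand with the lowest ratio, beside its partner strand and the strands that came after the chosen ones in the order of ratios. Among the RefSeq (GRCm38.p6) entries used, 1 of the 3 strands had a mature sequence. Part of RefSeq was left out, as described with the processing, so this does not show whether RefSeq holds the miR-1948 strands. Capitals mark the seed, and sequences run 5′ to 3′.
miR-592-5p: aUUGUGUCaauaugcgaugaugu
miR-592-3p: uCAUCACGuggugacgcaacau
miR-1247-5p: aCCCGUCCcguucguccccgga
miR-192-5p: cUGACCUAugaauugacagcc
miR-29c-3p: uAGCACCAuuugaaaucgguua

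The seed of miR-592-5p was carried by 0 other names among the 1679 mature names in the RefSeq sequences used, and the seed of miR-1247-5p likewise by 0 others. The seeds of miR-192-5p and miR-29c-3p were shared with 1 and 2 other listed names. The 5p strand of miR-592 has 23 bases, of which 34.8% are G or C, whereas miR-1247-5p has 72.7% G or C. The strand miR-592-3p is not among the listed rows and its level was not analysed here.

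The hairpin of miR-592 is shown because it places both Dicer cuts, with the 5p strand in capitals.
mir-592 hairpin: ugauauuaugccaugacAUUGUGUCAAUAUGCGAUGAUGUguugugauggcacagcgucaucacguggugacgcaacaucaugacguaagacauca

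The 5p strand covers bases 18 to 40 of this 96-base hairpin and the 3p strand bases 58 to 79. The 17 bases between them form the loop side that is removed when the strands are released. The hairpin lies on the minus strand of chromosome 6, positions 27936655 to 27936750 of GRCm38 (mm10), inside Grm8, which encodes a metabotropic glutamate receptor. It falls in an intron of all 4 protein-coding Grm8 transcripts that span it and in an exon of 1 noncoding Grm8 transcript. miR-592 has been studied in mouse neurons, where it represses the neurotrophin receptor gene Ngfr. The hairpin of miR-1948 lies on the plus strand of chromosome 18, positions 12714811 to 12714895, inside Ttc39c, a tetratricopeptide repeat gene. There it falls in an intron of all 4 protein-coding transcripts that span it, and in an exon of 0 others. Within 1 Mb, GENCODE places 0 other miRNA genes around miR-592 and 1 around miR-1948, Mir1901, which is not among the listed hairpins.

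All 3 strands were lower in the mutant liver than in the wild-type liver by RPM, by factors between 4.41 and 7.74. miR-1948-3p, the most abundant of them, had 635 reads in the mutant library and 1734 in the wild-type library. That is 34.4 RPM in the mutant (interval 31.7 to 37.1), against 152 RPM in the wild type (interval 145 to 159). Its level in the mutant was 4.41-fold lower (interval 4.03 to 4.84), a log2 ratio of -2.14. miR-1948-5p had 187 reads in the mutant library and 578 in the wild-type library, which is 10.1 RPM in the mutant (interval 8.72 to 11.7) against 50.6 RPM in the wild type (interval 46.5 to 54.9). It was 5.00-fold lower (interval 4.23 to 5.92), a log2 ratio of -2.32. The counting intervals of the mutant and wild-type levels did not overlap for either strand. The choice by ratio favoured this, and it does not set the strands apart. The intervals of miR-26b-5p, with a ratio of only 0.905, did not overlap either. The mutant level of the more abundant miR-1948-3p lay below the wild-type level of miR-1948-5p.

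miR-592-5p was the rarest and had the lowest ratio. It had 19 reads in the mutant library and 91 in the wild-type library, which is 1.03 RPM in the mutant (interval 0.619 to 1.61) against 7.96 RPM in the wild type (interval 6.41 to 9.77). The ratio corresponds to a 7.74-fold lower level, with an interval of 4.69 to 13.4, and to a log2 ratio of -2.95. The interval is wide because the mutant value rests on 19 reads, and it overlaps that of miR-1948-5p.

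**Figure D1:**
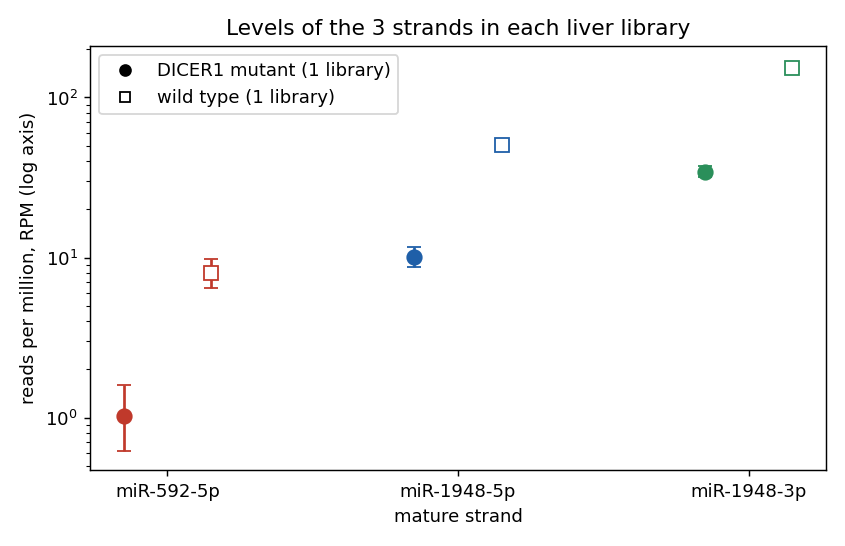
Level of each strand in RPM (log axis) in the DICER1 mutant library (filled circles) and the wild-type library (open squares), 1 library each, with exact Poisson 95% intervals for counting error. Every mutant point lies below the wild-type point of the same strand, from 1.03 against 7.96 RPM for miR-592-5p to 34.4 against 152 RPM for miR-1948-3p.

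By the same RPM values, the 3 strands held lower places in the mutant library in the order of abundance of the 281 listed miRNAs. These places add no separate observation. Because most listed miRNAs were higher in the mutant, places also fell for miRNAs that hardly changed. For example, miR-365-3p, with a ratio of 1.01, ranked 94 in the mutant library and 56 in the wild-type library. miR-1948-3p ranked 124 in the mutant library and 40 in the wild-type library. miR-1948-5p ranked 178 in the mutant and 66 in the wild type, and miR-592-5p ranked 257 in the mutant and 110 in the wild type. Together they made up 45.5 RPM of the mutant library and 210 RPM of the wild-type library, so they were a small part of either one.

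The strands were set against the other listed miRNAs only to place them. A miRNA was counted as lower when it differed at least 2-fold by RPM and its interval excluded equality. All 3 strands met this, as did 20 of the 276 listed miRNAs with at least 10 reads, or 7.25%. Of the 247 of these with an arm in the name, 14 were lower, or 5.67%. Since the ratio chose the strands, nothing is read from their count. The median log2 ratio of the 276 miRNAs was 2.77, so most of what was listed was higher in the mutant by RPM. The listing on the authors' scale shaped this median and the shares lower and higher. By RPM it kept ratios up to 1.19 and from 4.78 upward, and left out those between, so they do not describe all miRNAs of the libraries. At a ratio of 0.25 or less, 8 of the 276 were found, namely the 3 strands, miR-1247-5p, miR-871-3p and the names without an arm miR-692, miR-3471 and miR-3470b.

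**Figure D2:**
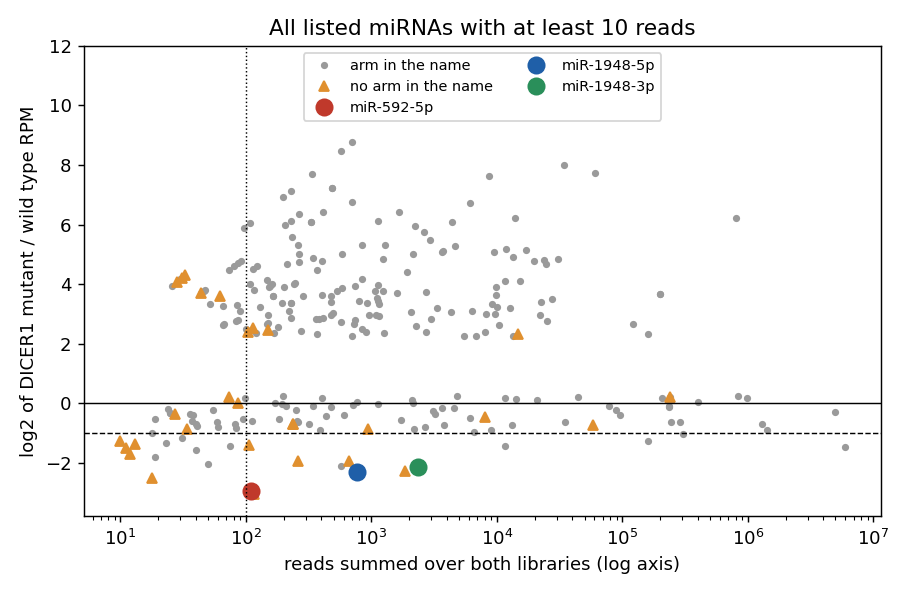
Log2 of the mutant over wild-type RPM against the reads summed over both libraries (log axis) for the 276 listed miRNAs with at least 10 reads, 1 point per miRNA. The dotted line marks 100 reads and the dashed line 2-fold lower, and the 3 strands lie between -2.95 and -2.14, against a median of 2.77 for all points.

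The lower edge of the choice was close. Ranked by ratio, the strands held places 1, 2 and 3, and the next strand was miR-1247-5p, from a hairpin on chromosome 12, with 156 reads in the mutant and 419 in the wild type. It was 4.34-fold lower (interval 3.60 to 5.25), and its interval contains the value of miR-1948-3p. Reads of miR-1948-3p per read of miR-1247-5p were 4.07 in the mutant and 4.14 in the wild type, a conditional odds ratio of 0.984 with an interval of 0.798 to 1.22. For miR-1948-5p there were 1.20 per read of miR-1247-5p in the mutant and 1.38 in the wild type, an odds ratio of 0.869 (interval 0.674 to 1.12). Thus the order of miR-1247-5p and either miR-1948 strand was not resolved at this depth. The next after it were miR-192-5p, an abundant hepatocyte miRNA, at 2.78-fold lower, and miR-29c-3p, of a family that represses collagen genes, at 2.69-fold lower. The intervals of both lie apart from those of the 3 strands.

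**Figure D3:**
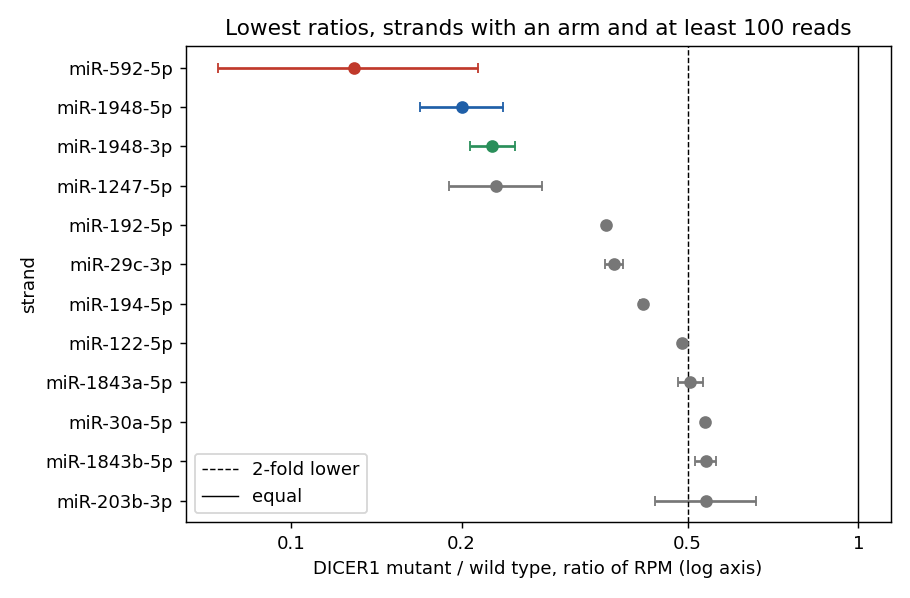
Ratio of mutant over wild-type RPM (log axis) for the 12 strands with the lowest ratios among those with an arm and at least 100 reads, with 95% counting intervals. The 3 strands (coloured) and miR-1247-5p lie between 0.129 and 0.230, and the next strand, miR-192-5p, lies at 0.360.

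Below 100 reads, the strands with an arm and the lowest ratios were miR-6964-3p, miR-19b-1-5p and miR-6937-3p. miR-6964-3p had 1 read in the mutant and 6 in the wild type, so its ratio was 0.103 (interval 0.00224 to 0.850). miR-19b-1-5p and miR-6937-3p each had 1 read in the mutant and 4 in the wild type, a ratio of 0.155 whose interval of 0.00314 to 1.56 includes equality. The strand miR-871-3p, with 14 reads in the mutant and 36 in the wild type, was 4.16-fold lower (interval 2.19 to 8.34). miR-592-5p, with 110 reads over both libraries, was itself just inside the minimum, and with a minimum of 200 reads it would not be ranked.

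The proportion of the miR-1948 strands was compared within each library. The 5p strand made up 22.7% of 822 miR-1948 reads in the mutant (exact Clopper-Pearson interval 19.9% to 25.8%) and 25.0% of 2312 reads in the wild type (interval 23.2% to 26.8%). The conditional odds ratio of 5p to 3p reads, mutant over wild type, was 0.883 with an interval of 0.728 to 1.07, which includes equality. This ratio does not depend on how the libraries were scaled to each other. The 3p strand was the more abundant strand in both libraries, and both strands together had 44.5 RPM in the mutant and 202 RPM in the wild type. A smaller shift of the strands, within that interval, was not detectable at this depth.

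Hairpin names with both strands listed give the setting for this proportion. There were 62 with at least 10 reads per strand, where copies that differ only in a copy number, such as those of miR-26a, were summed under 1 name. By RPM and the same 2-fold limit, both strands were called higher in the mutant in 36 of them and both were called lower in 1, which was miR-1948. The low ratios of both miR-1948 strands were fixed by the choice, and 62% of all listed miRNAs were higher. A strand was lower and its partner neither in 3 hairpins, and a strand was higher and its partner neither in 6. The 5p strand was lower and the 3p strand higher in 1, miR-1247, and neither strand was called in 15. These calls hold for RPM only. On the authors' scale every strand called neither here was at least 2-fold lower, so there miR-1948 was not the only hairpin with both strands lower. The log2 ratio of the 5p strand minus that of the 3p strand was -0.18 for miR-1948 and had a median of -0.50 over the 62 names. The size of the difference between strands had a median of 0.74, and it was smaller than that of miR-1948 in 14 hairpins. These are the names whose strands both passed the authors' listing.

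**Figure D4:**
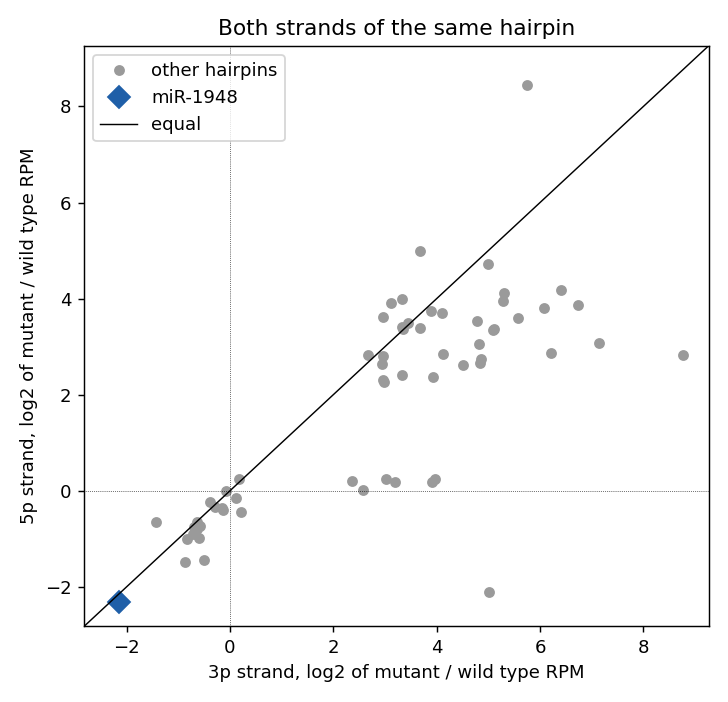
Log2 of the mutant over wild-type RPM for the 3p strand (horizontal axis) and the 5p strand (vertical axis) of 62 hairpin names with both strands listed, 1 point per name with copies summed. The diamond is miR-1948, at -2.14 for 3p and -2.32 for 5p, and the line marks equal ratios of both strands.

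miR-592-5p was set against the strands of miR-1948 within each library. There were 0.0299 reads of miR-592-5p per read of miR-1948-3p in the mutant and 0.0525 in the wild type, an odds ratio of 0.570 with an interval of 0.326 to 0.952. Per read of miR-1948-5p there were 0.102 in the mutant and 0.157 in the wild type, an odds ratio of 0.646 (interval 0.362 to 1.10). As the same ratios chose the strands, these values describe the 2 libraries and are no test. In all, 6 such pairs among these strands and miR-1247-5p were computed, without adjustment.

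The miRNAs most like each strand were taken as the 5 listed rows with the nearest log2 ratio, a likeness that rests on 2 libraries and is a description. For miR-592-5p the nearest was miR-692, a name without an arm, with 19 reads in the mutant and 98 in the wild type, which lay 0.11 below it on the log2 scale. The other 4, miR-19b-1-5p, miR-6937-3p, miR-6964-3p and miR-3471, had between 1 and 4 reads in the mutant. For miR-1948-5p the nearest were miR-3470b, with 470 reads in the mutant and 1399 in the wild type, then miR-1948-3p, miR-3471, miR-1247-5p and miR-871-3p. For miR-1948-3p they were miR-1247-5p, miR-871-3p, miR-3470b, miR-1948-5p and miR-690. Thus miR-1247-5p lay 0.02 above miR-1948-3p, and the strands of miR-1948 lay 0.18 apart. The likeness to miR-1247 is limited to its 5p strand. Its partner miR-1247-3p was higher in the mutant, with 572 reads there and 11 in the wild type, a ratio of 32.2.

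Marker miRNAs of liver cell types are given beside these strands as counts, to be read against all 276 listed miRNAs with at least 10 reads, of which 171 (62%) were higher and 7.25% lower by RPM. All 5 hepatocyte marker hairpins were listed with 8 strands, of which 3 were lower, 0 higher and 5 neither, with a median log2 ratio of -0.81. Their summed level was 164056 RPM in the mutant and 407602 RPM in the wild type. Among them the liver's most characteristic miRNA, miR-122-5p, had 7303 RPM in the mutant and 14951 RPM in the wild type, a ratio of 0.488 (interval 0.485 to 0.492). Of 6 leukocyte marker strands, 6 were higher, with summed levels of 9674 RPM in the mutant and 1824 RPM in the wild type. Of 6 stellate and stromal marker strands, 6 were higher, with 12339 RPM in the mutant and 966 RPM in the wild type when miR-199a-3p and miR-199b-3p, which carry identical counts, are summed once. Of 10 biliary and epithelial marker strands, 7 were higher and 0 lower, a share near that over all listed miRNAs, with 5903 RPM in the mutant and 2104 RPM in the wild type. Among the others, miR-203-3p had a ratio of 0.641 and miR-31-5p one of 1.11. Of the neuronal and endocrine markers, 2 of 5 hairpins were listed, miR-7a and miR-375. Their 2 listed strands, miR-7a-1-3p and miR-375-3p, were higher, with summed levels of 85.8 RPM in the mutant and 11.8 RPM in the wild type. The strand miR-7a-5p is not among the listed rows. The part of cell makeup in the lower level of the 3 strands was not tested, and in whole tissue fewer cells of a type and less RNA per cell cannot be told apart.

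The 2 scalings chosen after the values were seen set the strands against hepatocyte miRNAs of the same library. Per read of miR-122-5p, miR-592-5p was 3.78-fold lower in the mutant, miR-1948-5p 2.44-fold and miR-1948-3p 2.16-fold. The ratios were 0.264 (interval 0.152 to 0.437), 0.410 (interval 0.346 to 0.484) and 0.464 (interval 0.423 to 0.508), so each interval lay below equality. Per summed read of the 8 hepatocyte marker strands, which are dominated by miR-192-5p, the ratios were 0.321 for miR-592-5p, 0.497 for miR-1948-5p and 0.563 for miR-1948-3p. The last has an interval of 0.513 to 0.617 and so lay within 2-fold. These intervals take the reads of the hepatocyte miRNAs as fixed.

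The authors' own values give larger folds for the 3 strands than RPM. The authors' deposited table gives miR-592-5p a log2 normalised value of 0.70 in the mutant and 3.65 in the wild type. In the authors' deposited table miR-1948-5p has 2.84 in the mutant and 6.22 in the wild type, and miR-1948-3p has 4.46 in the mutant and 7.79 in the wild type. These values had 1 added before the log was taken, so their difference understates the fold of a rare strand such as miR-592-5p. The signed folds in the authors' deposited table are -18.3 for miR-592-5p, -11.9 for miR-1948-5p and -10.5 for miR-1948-3p, where the minus sign marks a lower level in the mutant. The authors' library factors lower every mutant to wild-type ratio by 1.25 on the log2 scale relative to RPM. With these factors, 105 of the 276 miRNAs (38%) were at least 2-fold lower and the other 171 at least 2-fold higher. The listing fixed this split, since it kept only rows that differed at least 2-fold on the authors' scale. The 3 strands were lower than wild type under every scaling tried, from 0.563 for miR-1948-3p per hepatocyte marker read down to 0.0195 for miR-592-5p with DESeq2 size factors. Given their low ratios by RPM, this was fixed, since no scaling raised a ratio by a factor above 2.48.

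**Figure D5:**
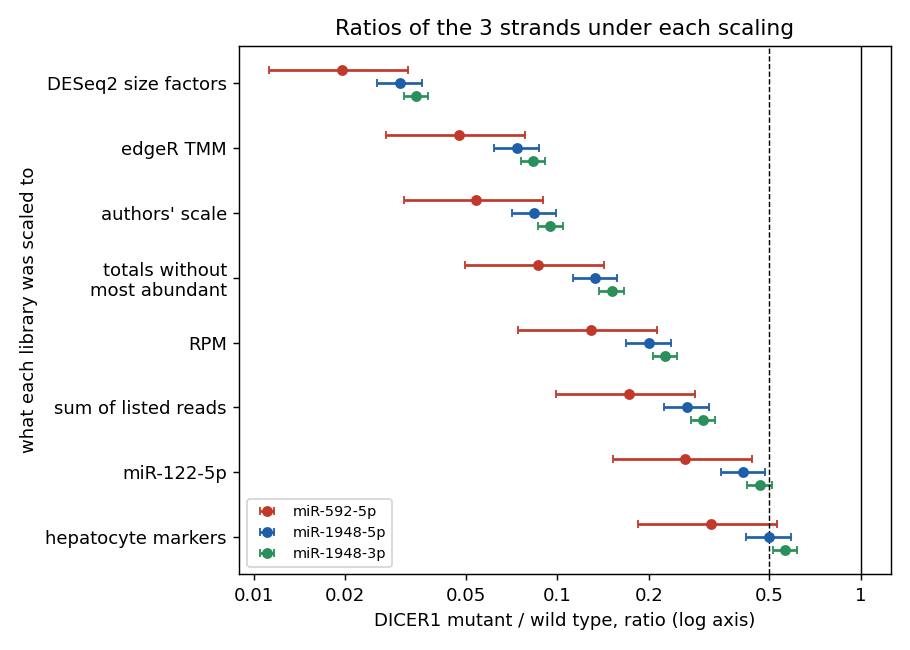
Ratio of the mutant over the wild-type level (log axis) for each strand under 8 scalings of the libraries, with 95% counting intervals. The solid line marks equality and the dashed line 2-fold lower. Each scaling multiplies every ratio by 1 factor, so the order of the strands is fixed and only their distance from equality changes.

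Lists of hairpins with roles in the liver put the strands beside better-known miRNAs. Of 14 hepatocyte-abundant hairpins, 12 were listed with 20 strands, of which 3 were lower, 2 higher and 15 neither, with a median log2 ratio of -0.54. Its most abundant strands were miR-192-5p, with a ratio of 0.360, miR-22-3p at 0.821, miR-30a-5p at 0.538 and miR-148a-3p at 0.620. All 5 hepatocyte marker hairpins are on this list, and its 3 lower strands are those already counted among the markers. Of 18 hairpins studied in hepatic glucose and lipid metabolism, 12 were listed with 22 strands, of which 2 were lower, 8 higher and 12 neither, with a median of 0.06. Its most abundant strands were miR-26a-5p at 1.19, miR-122-5p at 0.488, miR-378a-3p at 0.646 and miR-29a-3p at 0.925. The second list repeats hairpins of the first, among them miR-122, miR-802, miR-26a and miR-378a, so the lists are not separate observations. Over all listed miRNAs with at least 10 reads, 7.25% were lower and 62% higher, with a median of 2.77. The lowest log2 ratio was -1.48 on the first list and -1.43 on the second. Higher ratios than those of the 3 strands were fixed by the choice for every list strand with an arm and at least 100 reads.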

How the data were processed

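Total RNA of liver was made into small RNA libraries with the SMARTer smRNA-seq kit, and reads were mapped to mm10 and miRBase 22.1 and classed by arm, per the labels' protocols. The submitters' processing notes name cutadapt. For the aligner, the treatment of shared reads and the authors' test, the methods were not given in the sources used here.

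Raw read counts, RPM and log2 normalised values per library were deposited by the authors in 1 table, with a signed fold score and p-values per miRNA. The deposited RPM is the count scaled to a common library size, and dividing the counts by it gave the library totals. The deposited log2 values equal log2 of 1 plus RPM times a library factor, 0.611 in the mutant and 1.46 in the wild type. As there were only 2 libraries, the deposited p-values were left aside.

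Ratios of RPM were given exact conditional binomial (Clopper-Pearson) intervals, levels exact Poisson intervals, and strand ratios conditional odds ratios with exact intervals (scipy 1.17.1). Rows under 10 reads were left out of counts. TMM factors (edgeR 4.0.16) and DESeq2 1.42.0 size factors, from the listed rows, were alternatives, as were other totals, pseudocounts, read minimums and fold limits. The intervals and calls were tested on simulated counts with Poisson counting error alone. As the intervals assume this error, that checks the computation and not the spread between animals or libraries. Host genes are from the GENCODE annotation of GRCm38 and sequences from RefSeq, with 251 of 281 listed names matched. RefSeq entries on chromosome 18 were left out, so names found only there count as unmatched. The strands and lists were chosen with earlier results of these data known. The miRNAs named by rule were the next 3 strands in order, the 3 lowest under 100 reads, the 5 nearest in log2 ratio, those with a shared seed or within 1 Mb, and up to 4 abundant strands per list. Others, such as miR-26b-5p and miR-365-3p, were named after their values were seen.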

Additional observations from a re-analysis of the deposited data

How the results depend on the processing

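All 3 strands stayed lower in the mutant than in the wild type under the 9 alternatives tried for each, where each scaling multiplies every ratio by 1 common factor. For the scalings this followed from the choice of strands with low ratios, as the largest factor was 2.48, and it is no test of them. In the order miR-592-5p, miR-1948-5p and miR-1948-3p, the ratios of mutant to wild type were 0.0542, 0.0839 and 0.0950 on the authors' scale, 0.0475, 0.0735 and 0.0832 by edgeR's TMM, and 0.0195, 0.0303 and 0.0342 by DESeq2 size factors. They were 0.264, 0.410 and 0.464 per read of miR-122-5p, and 0.321, 0.497 and 0.563 per hepatocyte marker read. For miR-1948-5p and miR-1948-3p the ratios were 0.267 and 0.303 with the sum of listed reads and 0.133 and 0.151 with totals without the most abundant miRNA of each library. TMM and DESeq2 factors were computed on listed rows, most of which were higher by RPM, so they lower every ratio by construction. With pseudocounts of 0.5 and 5 reads, the ratios stayed inside their counting intervals. The count of lower miRNAs, 20 by RPM, was 105 on the authors' scale, with TMM and with DESeq2 factors. The shared 105 follows from the listing and is no agreement of methods. No listed ratio by RPM lay between 1.19 and 4.78, and each of these scalings put every row below that gap at least 2-fold lower. The count was 58 without the most abundant miRNAs, 13 with at least 100 reads, 43 at a fold limit of 1.5 and 8 at a limit of 4. The count of higher miRNAs, 171 by RPM, was 75 with DESeq2 factors. With a minimum of 200 reads, miR-592-5p drops out and the miR-1948 strands hold places 1 and 2. The 5p to 3p odds ratio of miR-1948 was 0.885 with 0.5 added to each count. No paired analysis was possible because each group has 1 library. Depth limits miR-592-5p most, since its mutant level rests on 19 reads.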
